A study of Mus musculus with 2 samples.

Results

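The regions described here are the CTCF peaks whose summit lay within 1 kb of the first transcription start site (TSS) of exactly 1 protein-coding gene on mouse chromosomes 1 to 19. There were 5222 such peaks, of 48806 autosomal peaks and 49970 peaks in all in the optimal list, which the authors derived from both libraries with a filter on irreproducible discovery rate (IDR). They lay at 4590 of 20807 autosomal protein-coding genes (22.1%). CTCF chromatin immunoprecipitation and sequencing was carried out on limb tissue of B6NCrl strain mouse embryos, male and female together, at embryonic day 14.5. The series holds 1 group of 2 libraries, and both came from 1 pool of pulverised limbs, so the spread between replicate 1 and replicate 2 may be technical. No genotype, treatment or other tissue was compared. The comparisons are therefore between positions along the promoter, between motif strands, and between promoter peaks and the other CTCF peaks of the same list. Peaks of CTCF do not report expression, so the labelled tissue could not be checked against limb markers. A limb holds many cell types, and a weak peak in few cells and in all cells cannot be told apart.

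CTCF is a DNA-binding protein with a row of zinc fingers that reads a long, asymmetric motif, so each bound site has a strand. Cohesin, the ring complex that extrudes chromatin loops, is stopped by CTCF mostly when it meets the side of the protein set by that strand. CTCF sites at promoters are known to bring distal enhancers to a gene, as at the clustered protocadherin genes.

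The motif found at the non-promoter peaks had the consensus NCCACCAGGGGGCANNN (17 letters, N for any base). It was searched on both strands within 50 bp of each summit with a scoring matrix, so that a match need not carry every letter. To show how the motif sat relative to the gene, 7 upstream sites were chosen from the genes with the strongest peaks. They are given in the direction of the gene, GRCm38 (mm10), with the motif match in capitals and 12 bases on either side. The first 5 carry the motif on the gene strand, and the other two carry it on the opposite strand, so that the reverse complement of the motif is read.
Med4, chr14:73509884-73509924, + strand: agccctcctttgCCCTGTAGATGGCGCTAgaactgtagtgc
Adprhl2, chr4:126321732-126321772, - strand: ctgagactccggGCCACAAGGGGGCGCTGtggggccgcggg
Fitm2, chr2:163472697-163472737, - strand: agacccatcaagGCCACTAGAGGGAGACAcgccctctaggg
Ddx47, chr6:135011529-135011569, + strand: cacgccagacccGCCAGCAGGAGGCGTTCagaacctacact
Arhgap22, chr14:33213902-33213942, + strand: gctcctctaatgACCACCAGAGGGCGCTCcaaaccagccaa
Vps18, chr2:119288647-119288687, + strand: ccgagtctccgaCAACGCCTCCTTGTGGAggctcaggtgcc
Slc39a13, chr2:91070583-91070623, - strand: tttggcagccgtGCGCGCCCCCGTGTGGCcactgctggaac

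To show a whole promoter, the RefSeq promoter of Med4 is given (GRCm38.p6, chr14:73509799-73510098, + strand), from 250 bases before the RefSeq start to 50 bases after it. The motif match in capitals fills bases 98 to 114. Of the 20 genes with the strongest peaks, 18 were matched in the RefSeq promoter table, and in 10 of them the motif match lay inside that window.
Med4 promoter: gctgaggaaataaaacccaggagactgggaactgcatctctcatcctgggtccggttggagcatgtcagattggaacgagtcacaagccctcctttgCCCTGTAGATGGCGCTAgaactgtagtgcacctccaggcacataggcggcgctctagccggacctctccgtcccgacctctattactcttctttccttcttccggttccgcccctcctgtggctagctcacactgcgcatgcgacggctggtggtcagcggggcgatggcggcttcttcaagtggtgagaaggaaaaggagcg

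Summits were most frequent immediately upstream of the TSS. The signed offset, negative upstream in the direction of the gene, had a median of -31 bp (95% interval -40 to -24 bp) and quartiles of -224 and 320.75 bp. Of the 5222 peaks, 2842 (54.4%, 95% interval 53.1 to 55.8%) lay upstream, 2375 lay downstream and 5 lay on the TSS itself. All such intervals cover counting error only, since peaks of 1 list are not replicates. The fullest 100 bp bin was the one that ends at the TSS, with 870 peaks (16.7%), against 467 in the 100 bp that follow it. Peaks within 100 bp of the TSS on either side numbered 1338 (25.6%), and 1534 (29.4%) lay more than 500 bp away. Of the 2380 summits on or downstream of the TSS, 1427 (60.0%) were in an exon and 953 in an intron, with median signals of 39.0 and 39.9.

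The signal of promoter peaks dropped at the TSS. Signal is the deposited peak strength of the pooled data, on the scale of its own list. Replicate medians were lower than pooled medians, though single values could be higher, as at Tbl2 (5.20 pooled and 10.7 in replicate 1). Median signal was 64.5 (95% interval 61.0 to 68.1) for upstream peaks and 39.4 (37.6 to 41.1) for downstream peaks. Replicate 1 gave medians of 35.3 upstream and 21.5 downstream, and replicate 2 gave 33.3 upstream and 20.3 downstream, so each library alone showed the step. Along the promoter, median signal was 70.9 between 1000 and 900 bp upstream, 48.3 between 500 and 400 bp upstream, 69.6 between 200 and 100 bp upstream and 81.1 (72.2 to 90.5) in the last 100 bp. It was 42.4 (38.4 to 47.3) in the first 100 bp downstream and stayed between 36.1 and 44.1 from there to 1 kb. With summits on the TSS itself left out, the 100 bp upstream had 1.92 times the median signal of the 100 bp downstream. Distance without direction carried less: peaks within 100 bp of the TSS had a median of 60.8 (55.5 to 65.7), against 47.8 (44.4 to 50.8) for those more than 500 bp away. That ratio of 1.27 fell to 1.03 (95% interval 0.964 to 1.09) when the TSS of any transcript was used in place of the first TSS of the gene. Over all 5222 peaks, the Spearman correlation of signal with absolute offset was -0.078. Base composition moved with the step, with a median GC content of 59.2% around upstream summits and 63.7% around downstream summits, and its part in the result was not tested.

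**Figure D1:**
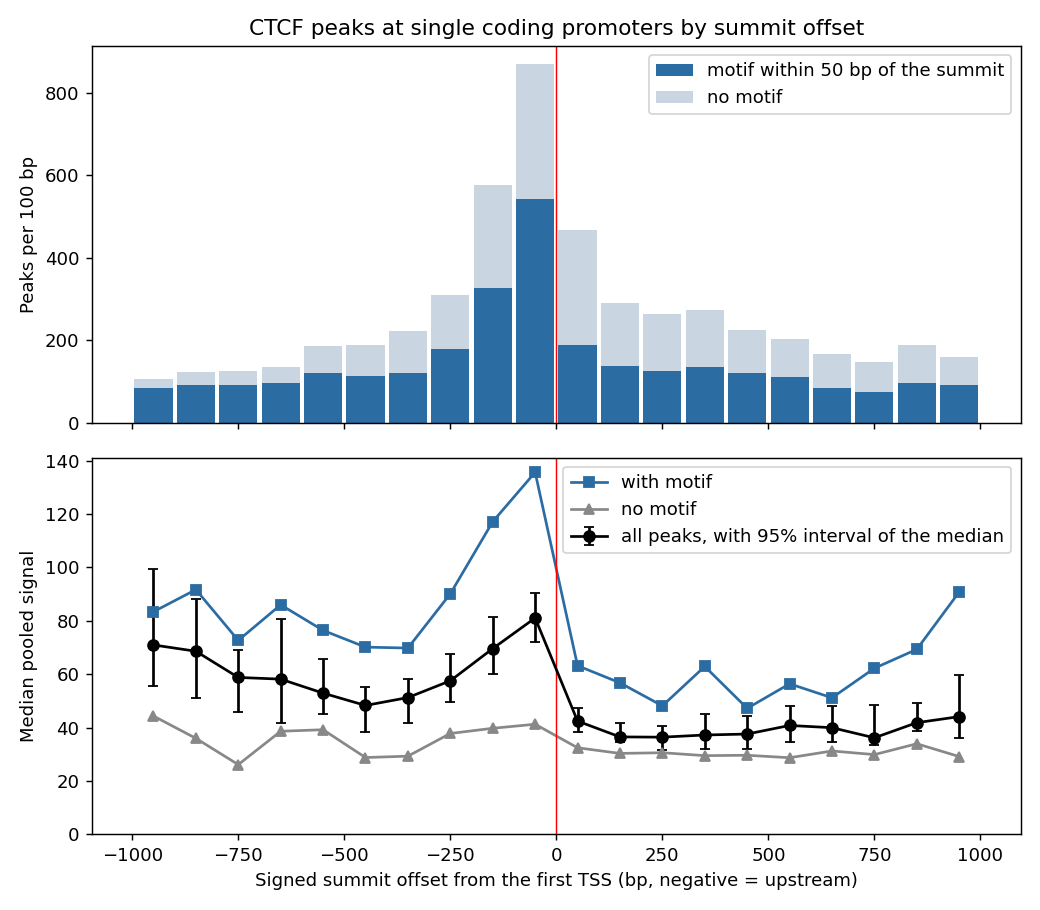
Number of promoter peaks (top, stacked by whether the summit has a motif within 50 bp) and median pooled signal (bottom) in 100 bp bins of the signed summit offset from the first TSS in bp. The bin that ends at the TSS held the most peaks (870) and the highest median signal (81.1), and the bin that starts there had a median of 42.4; error bars are 95% intervals of the median.

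A match to the trained CTCF motif was less frequent at promoter peaks than elsewhere. A match within 50 bp of the summit was found at 2922 of the 5222 promoter peaks (56.0%, 95% interval 54.6 to 57.3%). The share was 80.2% of all autosomal peaks. It was 83.9% (83.5 to 84.2%) of the 41219 peaks more than 1 kb from the first TSS of any gene. These are called peaks away from gene starts, though starts of other transcripts may lie near them. The score threshold was met by 5.63% of windows 1 kb from the promoter summits and by 4.92% of such windows beside the 41219 other peaks. With a stricter score, met by 1% of windows, the shares were 25.8% at promoter peaks and 60.2% at the other peaks. The matrix was trained on 2000 of those other peaks, so it was fitted to the class set beside the promoter peaks. How far this shaped the gap was not tested. The matched motif was centred a median of 9 bp from the summit. Motif share was lowest just downstream of the TSS, at 40.5% of peaks in the first 100 bp, and highest far upstream, at 79.2% between 1000 and 900 bp. It was 62.3% in the 100 bp upstream of the TSS, where the signal was highest.

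Promoter peaks with a motif were stronger than those without. Median signal was 78.4 with a motif and 33.2 without, and at the other autosomal peaks 72.7 with a motif and 29.8 without. In the 100 bp upstream of the TSS the medians were 136 with a motif and 41.2 without, and in the 100 bp downstream they were 63.2 with a motif and 32.4 without. The step at the TSS was therefore larger among peaks with a motif than among those without, a difference that was not tested. Across the 5222 peaks the Spearman correlation of signal with the best motif score near the summit was 0.49, as a description, since these values share the same libraries and base composition. It was 0.41 over the 41219 other peaks. GC content had a correlation of -0.069 with signal among promoter peaks.

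The motif upstream of the TSS lay mostly on the strand of the gene. Over all promoter peaks with a motif, 1704 of 2922 (58.3%, 95% interval 56.5 to 60.1%) were read in the direction of transcription. Among the 576 motifs centred in the 100 bp upstream of the TSS, 418 (72.6%, 68.7 to 76.2%) lay on the gene strand. The share was highest between 100 and 50 bp upstream, at 246 of 325 motifs (75.7%, 70.7 to 80.3%). It was lower with distance: 61.6% (55.9 to 67.1%) between 200 and 100 bp upstream, 57.7% (52.7 to 62.6%) between 500 and 200 bp, and 54.3% (49.8 to 58.8%) between 1000 and 500 bp. Downstream the shares were 56.3% (48.8 to 63.6%) within 100 bp, 52.7% (48.3 to 57.1%) between 100 and 500 bp and 50.1% (45.4 to 54.8%) beyond. All 3 downstream intervals included an even split, and all 4 upstream intervals except that of the farthest zone lay above it.

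**Figure D2:**
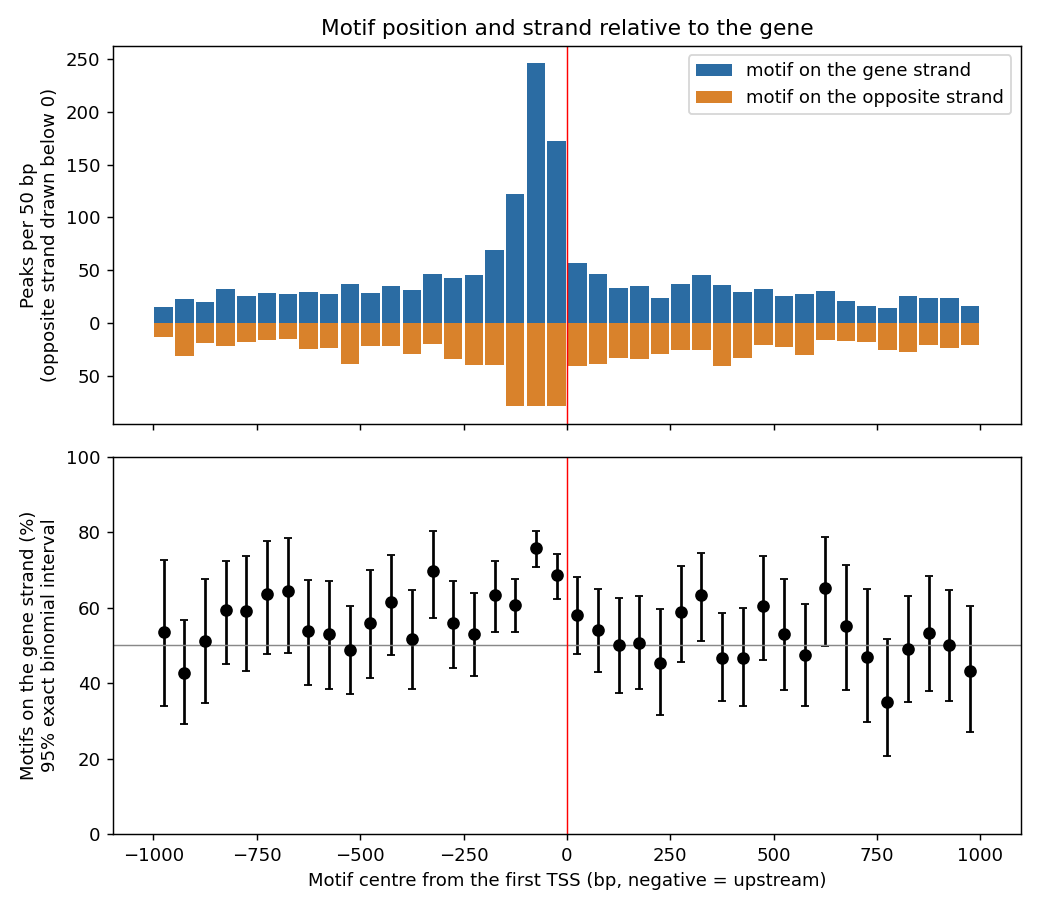
Number of promoter peaks with a motif on the gene strand (above 0) and on the opposite strand (below 0) in 50 bp bins of the motif centre from the first TSS in bp, and the gene-strand share per bin with its exact binomial 95% interval. Between 100 and 50 bp upstream, 75.7% of motifs were on the gene strand.

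Gene-strand sites were also the stronger ones in that zone. In the 100 bp upstream of the TSS, peaks with the motif on the gene strand had a median signal of 151 and those with it on the opposite strand 92.3. Replicate 1 gave 78.7 on the gene strand and 46.2 on the opposite strand, and replicate 2 gave 72.5 on the gene strand and 45.7 on the opposite strand. In the first 100 bp downstream the medians were close, at 65.0 on the gene strand and 62.5 on the opposite strand. The difference in signal by strand was thus seen upstream of the TSS and not just past it, though the difference between the zones was not tested.

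The strand of motif matches was also counted in promoters with and without a CTCF peak. In the 100 bp upstream of the first TSS, the same matrix matched in 652 of 1485 genes (43.9%) whose promoter peak had its summit between 150 bp upstream and 50 bp downstream, and 460 of those matches (70.6%, 66.9 to 74.0%) were on the gene strand. Among the 15211 genes with no optimal summit within 1 kb, 1070 (7.03%) had a match, of which 542 (50.7%, 47.6 to 53.7%) were on the gene strand. Over all 20807 autosomal coding genes, 10.4% of these windows held a match and 57.1% of the matches were on the gene strand. The 7.03% in genes without a peak was little above the 5.63% of windows 1 kb from promoter summits that met the same score, so most of those matches may be chance matches, for which an even split of strands is given in advance. Their split therefore says little about promoters without a peak. A match is a description of the letters and not a bound site.

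Each of these features was more frequent among the strongest promoter peaks, counted one feature at a time. Among the 523 peaks in the highest of 10 signal classes (228 to 522), 89.5% had a motif, 66.9% of those motifs were on the gene strand, 79.5% of summits were upstream and 34.2% were within the last 100 bp before the TSS. In the lowest class (5.14 to 19.02), 27.8% had a motif, 49.0% of the motifs were on the gene strand, 40.4% of summits were upstream and 8.62% were in the last 100 bp. Promoter peaks made up 10.7% of all autosomal peaks, and 6 of the 100 strongest.

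The strongest promoter peak was at Med4, which encodes a subunit of Mediator, the complex that links transcription factors to RNA polymerase II. Its signal was 522 in the pooled data, 269 in replicate 1 and 258 in replicate 2, with the summit 93 bp upstream, and it ranked 12 among all autosomal peaks. Rrp1, a nucleolar factor of ribosomal RNA processing, followed with 520 in the pooled data, 263 in replicate 1 and 256 in replicate 2, with the summit 63 bp upstream. Comtd1, which encodes a methyltransferase-domain protein, had 503, 256 in replicate 1 and 247 in replicate 2, at 57 bp upstream. Both libraries gave these 3 peaks closely similar values. Gins4, a subunit of the GINS complex of the replicative helicase, had a signal of 479 at 215 bp upstream, with 253 in replicate 1 and 226 in replicate 2. Adprhl2, an enzyme that removes ADP-ribose from serine, had 439 at 74 bp upstream, with 221 in replicate 1 and 220 in replicate 2. Fitm2, a lipid droplet protein of the endoplasmic reticulum, had 435 at 95 bp upstream, with 238 in replicate 1 and 197 in replicate 2. Ddx47, an RNA helicase of ribosome biogenesis, had 426 at 76 bp upstream, and Arhgap22, which switches off Rac, had 413 at 83 bp upstream. Med4, Adprhl2, Fitm2, Ddx47 and Arhgap22 are among the sites printed above with the motif on the gene strand.

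Several of the strongest peaks departed from this arrangement. Vps18, a subunit of the complexes that tether membranes to the lysosome, had a signal of 439 at 113 bp upstream with the motif on the opposite strand. Slc39a13, a zinc transporter needed for connective tissue, had 438 at 182 bp upstream, also on the opposite strand. Both are printed above as the 2 examples of that orientation. Downstream of the first TSS, Ccdc110 had 483 in an intron 303 bp downstream. Chd9, a chromodomain helicase, had 441 at 462 bp downstream, and Rbm17, a splicing factor, had 413 at 800 bp downstream. Gaa, the lysosomal enzyme that degrades glycogen, had 438 at 64 bp downstream with the motif on the gene strand. Top1mt, the topoisomerase of mitochondrial DNA, had 462 at 655 bp upstream, and Cirbp, a cold-induced RNA-binding protein, had 436 at 787 bp upstream. Of the 20 genes with the strongest peaks, 19 had a motif, 13 of those on the gene strand, and 15 summits were upstream. Among the 100 strongest promoter peaks, 94 had a motif, 61 of those on the gene strand, and 87 summits were upstream.

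**Figure D3:**
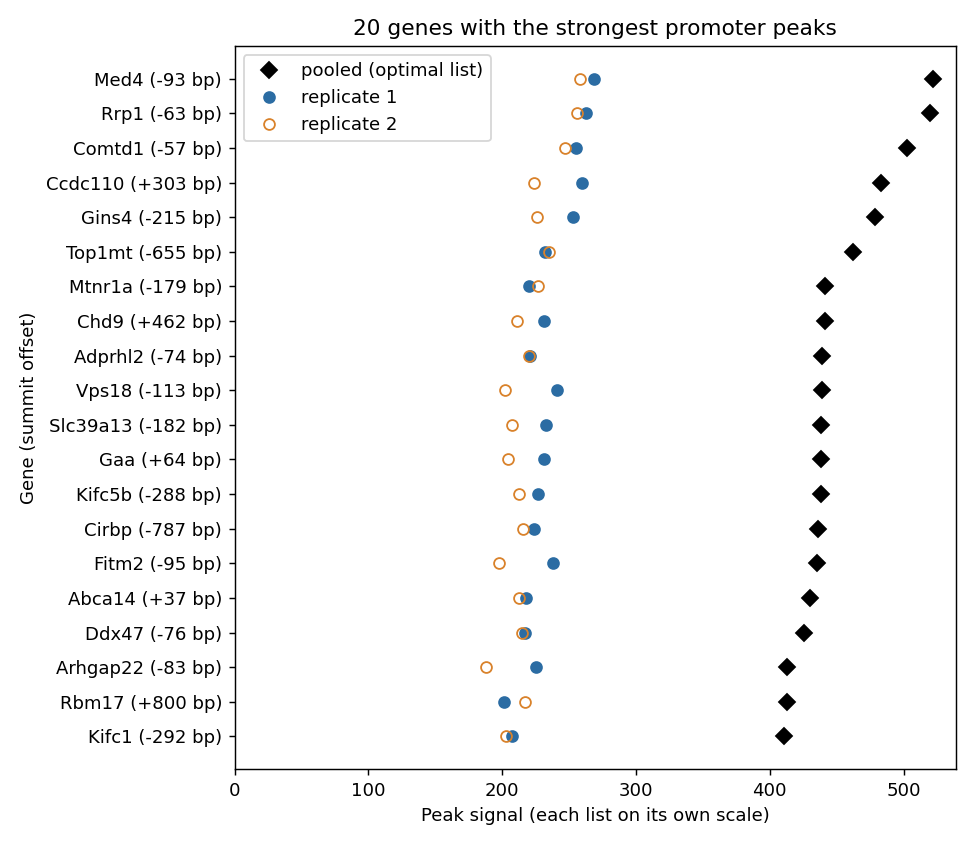
Peak signal at the 20 genes with the strongest promoter peaks, with the summit offset in bp beside each gene, for the pooled data and for each replicate list on its own scale. Med4 led with 522 in the pooled data, 269 in replicate 1 and 258 in replicate 2, and all 20 pooled signals were at least 411.

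Kifc5b and Kifc1, both kinesin motors of the minus-end directed class, had pooled signals of 438 and 411 with the summits 288 and 292 bp upstream. Their motif sites are printed because 38 of the 41 bases are identical between the 2 genes, so reads could have been placed at either copy. Their separate values are uncertain, since nothing in the sources used here gives the handling of such reads.
Kifc5b, chr17:26916775-26916815, + strand: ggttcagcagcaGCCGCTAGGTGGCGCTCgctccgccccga
Kifc1, chr17:33890939-33890979, - strand: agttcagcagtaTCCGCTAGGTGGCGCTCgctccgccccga

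Some strong promoter peaks held no match that reached the threshold. The strongest were at Rrp1 (520), Mtmr6, a phosphoinositide phosphatase (366), Spata20 (363), Timm21, a part of the mitochondrial import machinery (359), and Trpc4ap (352). Mtmr6 had 181 in replicate 1 and 188 in replicate 2, and Spata20 had 189 in replicate 1 and 175 in replicate 2, so these peaks were strong in each library. The 81 bases around the Rrp1 and Mtmr6 summits are given in the direction of the gene, in lower case since no match reached the threshold.
Rrp1, chr10:78413066-78413146, - strand: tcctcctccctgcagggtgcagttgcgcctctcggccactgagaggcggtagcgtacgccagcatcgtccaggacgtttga
Mtmr6, chr14:60265030-60265110, + strand: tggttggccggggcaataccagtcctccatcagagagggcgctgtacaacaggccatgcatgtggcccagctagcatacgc

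Most genes had 1 such peak, but 584 had several. Of the 4590 genes, 4006 had 1 promoter peak, 537 had 2, 46 had 3 and 1 had 4. The 1216 peaks of genes with several were weaker, with a median signal of 39.8 (37.0 to 41.8), against 49.7 over all promoter peaks. In 341 of the 537 genes with 2 peaks (63.5%) the peaks stood on opposite sides of the TSS. Both peaks had a motif in 156 of these genes, exactly 1 peak in 238 and neither in 143. The closest peaks of a gene were a median of 614.5 bp apart. Rhpn2 was the gene with 4, and its peaks were weak. They had signals of 41.2 and 30.9 upstream and of 15.7 and 5.36 downstream. Ap5b1, a subunit of the AP-5 adaptor of endosomes, had strong peaks at 389 bp upstream (144), 348 bp downstream (263) and 971 bp downstream (259). Rpl38, a ribosomal protein known for its role in Hox mRNA translation in the mouse, had a peak of 260 at 51 bp upstream between weaker peaks of 52.5 at 467 bp upstream and 122 at 614 bp downstream.

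Promoter peaks were set beside the other classes of autosomal peak. Their median signal was 49.7 (47.9 to 51.7), with a range of 5.14 to 522. It was 41.7 (38.1 to 46.2) at the 591 peaks near the first TSS of 2 or more coding genes, 61.3 (56.5 to 65.6) at the 1774 peaks near noncoding gene starts alone, and 60.2 (59.2 to 61.1) at the 41219 others. Motif share followed a like order, at 56.0% for the promoter peaks, 43.8% (39.8 to 47.9%) where 2 or more coding genes start, 78.0% (76.0 to 79.9%) at noncoding starts and 83.9% elsewhere. Promoter peaks of coding genes, alone or shared, thus had fewer motifs and lower signal than peaks at noncoding starts. They were also richer in GC, with medians of 61.2% at the promoter peaks, 62.7% at shared coding starts, 50.7% at noncoding starts and 48.8% elsewhere. Repeat sequence held 5.96% (5.33 to 6.63%) of promoter summits and 19.05% (18.7 to 19.4%) of the other summits. The nearest other peak was a median of 5007 bp from a promoter peak and 8105 bp from a peak elsewhere.

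**Figure D4:**
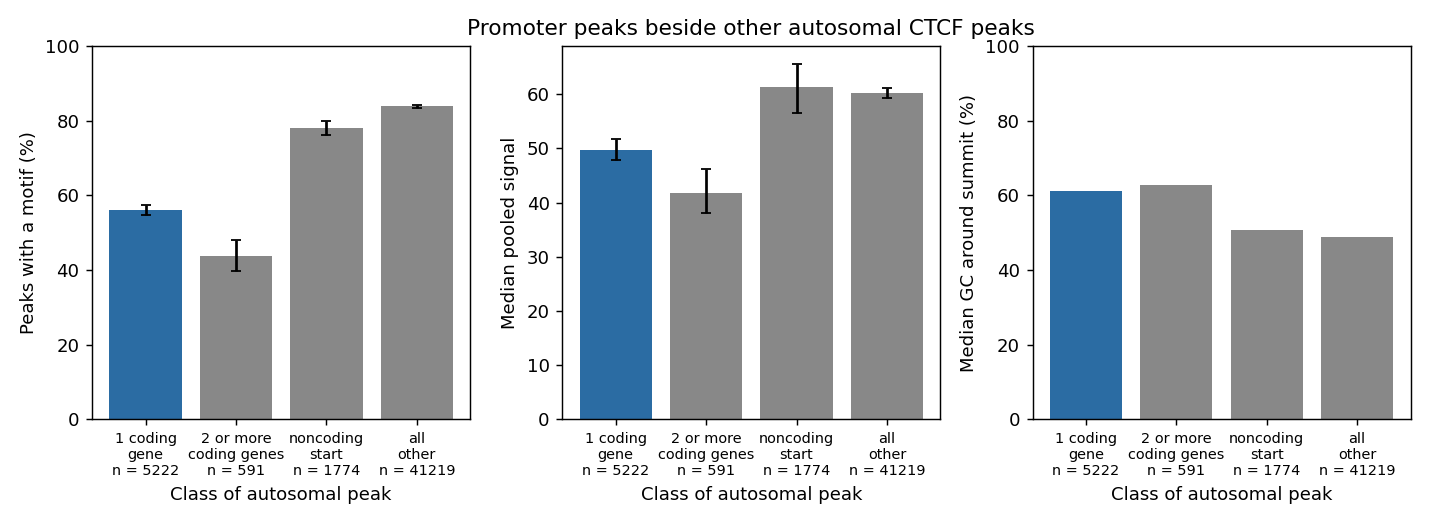
Motif share in percent with exact binomial 95% intervals, median pooled signal with its 95% interval, and median GC content in percent of the 201 bp around the summit, for peaks at 1 coding gene start (5222), at 2 or more (591), at noncoding starts alone (1774) and all others (41219). The promoter peaks had a motif share of 56.0%, against 83.9% of the others, at a higher GC content.

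CpG islands, stretches rich in CpG, mark most broadly used promoters. A start was called CpG-rich where GC was at least 50% and the observed over expected CpG ratio at least 0.6 in 501 bp. Of the 4590 genes with a promoter peak, 72.0% (70.7 to 73.3%) had a CpG-rich start. The share was 48.8% (48.1 to 49.5%) over all autosomal protein-coding genes and 39.5% (38.7 to 40.3%) of genes with no summit within 1 kb. The 3810 peaks at CpG-rich starts had a median signal of 47.3 (45.4 to 49.0) and a motif share of 53.3% (51.7 to 54.9%). The 1412 peaks at the other starts had a median of 58.2 (53.9 to 63.6) and a motif share of 63.2% (60.6 to 65.7%). Summits were upstream of the TSS at 57.1% of peaks at CpG-rich starts and at 47.2% of peaks at the other starts.

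Gene families differed widely in how many of their genes had a promoter peak as defined here, set against 22.1% of all autosomal coding genes. Genes whose only peak lay near the first TSS of 2 or more coding genes were counted as without one. Any optimal summit within 1 kb was found at 5596 genes, against the 4590 counted here. Of 88 ribosomal protein genes (Rpl and Rps), 31 (35.2%, 25.3 to 46.1%) had a promoter peak, with a median strongest signal of 120 per gene, against 56.1 over all genes with a peak. Rplp0, a protein of the ribosomal stalk, was highest at 384. Of 44 Nduf genes, which encode subunits and assembly factors of respiratory complex I, 12 (27.3%, 14.96 to 42.8%) had a peak, with a median of 246 and the highest at Ndufa6 (375). Mitochondrial ribosomal protein genes had peaks at 20 of 78, with a median of 90.5, and proteasome (Psm) genes at 15 of 49, with a median of 102. These housekeeping families thus had medians above that of all genes, but this was not particular to them. Among the other families, Wnt (111) and Sox (96.6) were also above it, and Kcn (43.4) and Fox (32.0) were below it. The RNA polymerase (Polr) genes had peaks at 9 of 28, with a median of only 32.6 although Polr2j reached 403. Zinc finger (Zfp) genes had peaks at 109 of 385 (28.3%, 23.9 to 33.1%), and the intervals of this family, of Rpl and Rps and of Pcdh lay wholly above the share over all genes. These intervals cover counting error only, and no family was tested against the rest. At the low end were the olfactory receptors with 6 of 1128 (0.532%, 0.195 to 1.15%) and the keratins with 2 of 53 (3.77%, 0.460 to 13.0%). Hox genes had peaks at 5 of 39 (12.8%, 4.30 to 27.4%), with a median of 199 and the highest at Hoxa7 (359). None of the 8 Lhx genes had such a peak, with an upper 95% bound of 36.9%.

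**Figure D5:**
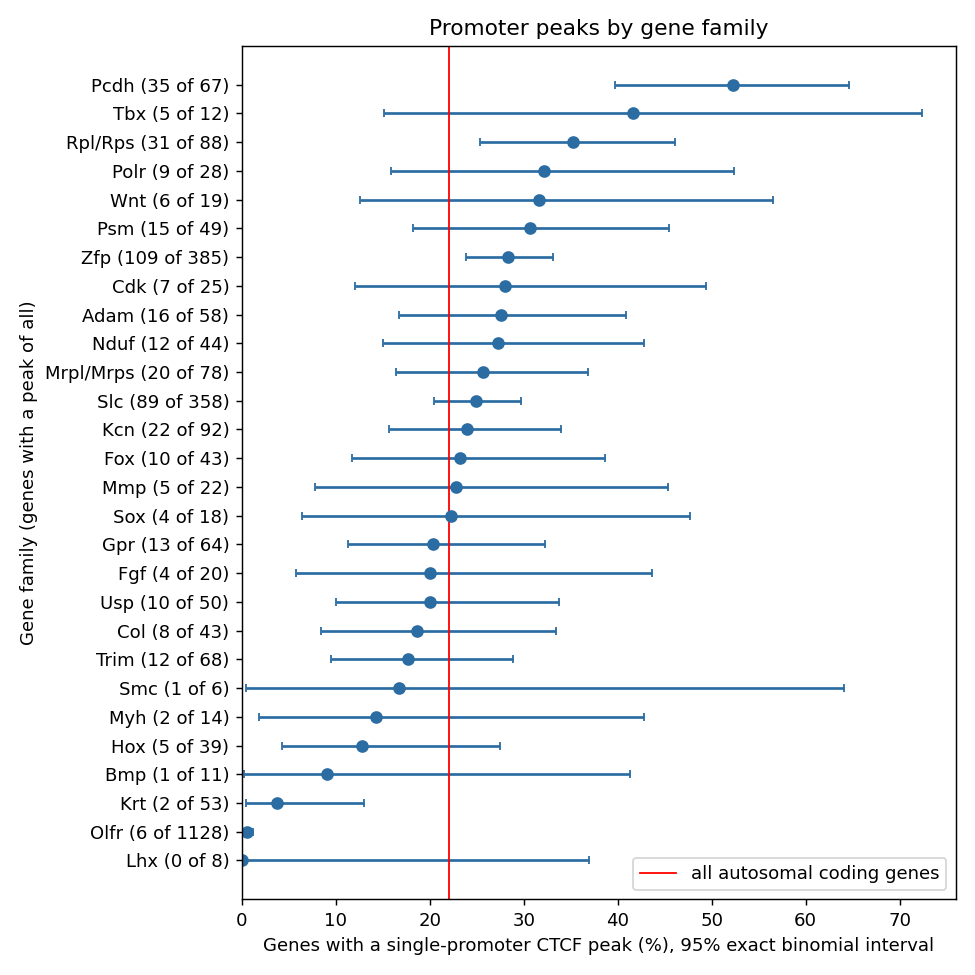
Share in percent of the genes of each symbol family with a promoter peak, with exact binomial 95% intervals; the vertical line is the share over all autosomal protein-coding genes (22.1%). The protocadherins (35 of 67 genes) were highest and the olfactory receptors (6 of 1128) close to 0.

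The protocadherins, adhesion molecules that give neurons a surface identity, had the highest share, at 35 of 67 genes (52.2%, 39.7 to 64.6%). Of these, 31 belong to the Pcdha, Pcdhb and Pcdhg clusters, whose 57 genes all lie on the + strand and are tandem copies of each other, so that these sites share sequence and reads may have been placed at a wrong copy. Peaks were present at 5 of 14 Pcdha genes, 8 of 22 Pcdhb genes and 18 of 21 Pcdhg genes. The 33 peaks of the clusters were weak, with a median signal of 35.4 and a range of 17.3 to 142. The median was 17.8 in replicate 1 and 17.5 in replicate 2. They stood close to the TSS, with a median offset of -52 bp and 28 of 33 summits within 150 bp upstream. All 16 motifs found in them were on the gene strand, 6 in Pcdha, 8 in Pcdhb and 2 in Pcdhg. A motif reached the threshold at 14 of 15 peaks in Pcdha and Pcdhb and at 2 of 18 peaks in Pcdhg. Pcdhac1 was highest in these clusters at 142 (74.0 in replicate 1 and 67.2 in replicate 2), at 48 bp upstream. Their GC content was low for promoter peaks, with a median of 44.3% against 61.2% over all of them. The strongest protocadherin peak was outside the clusters, at Pcdh1, with 390 at 840 bp upstream.

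Genes of limb patterning, skeletal growth and cohesin made up a list of 60, of which 58 are autosomal and 15 had a promoter peak (25.9%, 15.3 to 39.0%), close to the 22.1% of all genes. Wnt7a, the dorsal signal of limb ectoderm, had the highest, at 298 (137 in replicate 1 and 160 in replicate 2), 560 bp upstream. Gli1, a transcription factor and target of Hedgehog signalling, had 287 at 520 bp upstream, with 145 in replicate 1 and 142 in replicate 2. Gli2, the main activator of that pathway, had 253 at 109 bp upstream with no motif match, and a further peak of 24.5. Gdf5, the growth factor of joint formation, had 225 at 931 bp upstream, with 109 in replicate 1 and 115 in replicate 2. The sites of Wnt7a, Gli1 and Gdf5 are given as those of the 3 strongest patterning genes whose peak had a motif match, and in these 3 it was on the gene strand. The peak at Gli2, stronger than that at Gdf5, had no match to show.
Wnt7a, chr6:91411902-91411942, - strand: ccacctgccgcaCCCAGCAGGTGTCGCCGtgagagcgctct
Gli1, chr10:127342466-127342506, - strand: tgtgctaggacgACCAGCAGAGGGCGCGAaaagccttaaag
Gdf5, chr2:155946275-155946315, - strand: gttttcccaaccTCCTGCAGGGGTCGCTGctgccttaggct

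Weaker peaks were found at Bmpr1b, a receptor of bone morphogenetic proteins (136 at 111 bp downstream), and at Myod1, the muscle determination factor (106). The motif lay on the gene strand at Bmpr1b and on the opposite strand at Myod1. Prrx1 and Twist1, transcription factors of limb mesenchyme, had 36.2 and 21.05, Pthlh, a regulator of growth plate cartilage, had 35.4, Wnt5a, a signal of limb outgrowth, had 27.2, and Nog, an antagonist of bone morphogenetic proteins, had 16.6. Among the cohesin genes, Smc3, a core subunit of the ring, had 185 at 479 bp upstream, with 93.2 in replicate 1 and 91.0 in replicate 2. Pds5b, a cohesin regulator, had 155 at 5 bp upstream, Rad21, the subunit that closes the ring, 47.8, and Pds5a, the paralogue of Pds5b, 22.8. Strong and weak peaks thus occurred within both groups.

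Most promoter peaks were found in both libraries. The optimal list was itself filtered for agreement between these libraries, so high shares and correlations at its peaks were partly set by that choice. Of the 5222, 4014 (76.9%, 75.7 to 78.0%) had a partner summit at most 100 bp away in each replicate list shortened to its strongest 49970 peaks, against 81.2% of all autosomal peaks and 81.9% (81.5 to 82.2%) of the peaks away from gene starts. In the full replicate lists, 4887 (93.6%) had a matching summit in each. That share was lower than at the peaks away from gene starts (40416 of 41219) and at noncoding starts (1724 of 1774). Over the 4887 promoter peaks, signals of replicate 1 and replicate 2 had a Spearman correlation of 0.91. After scaling each replicate by its median, the SD of the log2 ratio of replicate 1 to replicate 2 was 0.56 at promoter peaks and 0.49 at the peaks away from gene starts. It was 0.14 in the strongest 10% of promoter peaks (522 with a value in both lists) and 0.88 in the weakest 10% (312 with such values). Values of strong peaks were thus the more reliable, and weak peaks without a match in both lists are not covered. The largest log2 ratio was 3.16 at Tfip11 (26.8 in replicate 1 and 2.86 in replicate 2), and the smallest was -2.88 at Tars (3.51 in replicate 1 and 24.6 in replicate 2). Both had weak pooled signals, of 39.1 at Tfip11 and 30.6 at Tars. The weakest promoter peaks were at Tbl2 (5.20), Thpo (5.17) and Ankrd44 (5.14), and none of these had a matching summit in both replicate lists.

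The distance of 1 kb cut through a continuous range of peaks. Just inside it, each exactly 1000 bp downstream, were Prmt9 (146), Gm572 (143) and Sppl3 (66.4). Just outside it were Socs1 at 1001 bp upstream (184), Efna1 at 1002 bp upstream (282) and Hcrt at 1002 bp downstream (126).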

How the data were processed

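The authors deposited peak lists on mm10 (GRCm38). Per the notes deposited with each library, a list was made from each replicate and from both pooled, and the optimal and conservative IDR lists were derived from these and 1 further file. The aligner, peak caller, control and IDR settings were not given in the sources used here. Deposited signal has an unstated normalization and compares peaks within a list alone. No list has read counts, so depth is unknown. A full list has 300000 peaks, the optimal list 49970 and the conservative list 48829.

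Summits of the optimal list were compared with the most upstream TSS of each GENCODE M21 gene (window 1000 bp). A replicate's signal at a peak was taken from the closest summit of its full list, up to 100 bp away. A motif matrix was trained in 10 rounds from the most enriched 8-mer on the 2000 strongest peaks away from gene starts on odd-numbered autosomes, with a threshold reached by 5% of windows 1 kb away. Promoter sequences came from RefSeq (GRCm38.p6). Shares have exact Clopper-Pearson 95% intervals and medians order-statistic 95% intervals, for counting error only. Binding was not compared between conditions and nothing was tested across peaks. Steps were tested on simulated data. Python 3.11.15, numpy 2.4.6, pandas 2.3.3, scipy 1.17.1 and matplotlib 3.10.9 were used.

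The region set, families and lists were chosen with earlier results of these data known. Genes named were those of the 20 strongest peaks, the 3 strongest in each of 5 offset classes, the 5 strongest without motif, the 3 with most peaks, the 3 largest and 3 smallest replicate ratios, the 3 weakest, the 3 on each side of the window edge, the strongest of each family and those of the limb and cohesin list. Not all are printed. Pcdhac1 and the protocadherin clusters were chosen after their values were seen. Alternatives were the conservative list, the strongest 50% of the optimal list, a window of 500 bp, the TSS of any transcript, the strongest peak per gene, each replicate alone, a stricter motif score (1%), a motif within 100 bp, and matching within 50 bp.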

Additional observations from a re-analysis of the deposited data

How the results depend on the processing

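Of 67 alternative values, 42 stayed within the main interval (the count of peaks within 1.5 times) and 25 moved; no direction turned round. With the strongest 50% of the optimal list, 2334 peaks remained, 64.8% upstream, with a median offset of -71 bp, a signal of 0.937 times that of all peaks (0.848 in the main set), a near to far signal ratio of 1.14, a motif share of 74.7%, a gene-strand share of 61.2% and an upstream to downstream ratio of 1.67 across the TSS (1.92 in the main set). With the 500 bp window, 58.6% of summits were upstream, the median offset was -42 bp, the motif share was 53.8% and the gene-strand share 61.0%. With the TSS of any transcript there were 7927 peaks, 57.9% upstream, with a near to far ratio of 1.03, a motif share of 61.6%, and gene-strand shares of 53.9% overall and 64.5% in the 100 bp upstream, against 58.3% and 72.6% with the first TSS. With the strongest peak of each gene, relative signal was 0.958 and the motif share 58.04%. The motif share was 25.8% with the stricter score and 60.6% within 100 bp of the summit. The share found in both replicates was 82.8% with the conservative list and 73.7% with matching within 50 bp.

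With 1 replicate left out, ranges were 5246 to 5264 peaks, 54.5 to 54.6% upstream, a median offset of -32 to -30 bp, relative signal of 0.852 to 0.854, a near to far ratio of 1.27 to 1.29, a motif share of 53.5 to 55.8%, gene-strand shares of 57.9 to 58.5% overall and 72.2 to 72.6% in the 100 bp upstream, and a ratio across the TSS of 1.84 to 1.88. The gene-strand share in the 100 bp upstream and the ratio across the TSS were added after seeing the data. No near to far ratio exists for the 500 bp window. No paired analysis was possible because both libraries belong to 1 group. Depth is unknown, and weak peaks limit precision. The SD of the log2 replicate ratio was 0.88 over the 312 peaks of the weakest 10% that had a value in both lists.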
